A study of Mus musculus with 12 samples.

Results

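The genes described here are 7 regulators of RNA processing, grouped as cold-induced RNA-binding proteins and temperature-sensitive splicing regulators: Cirbp, Rbm3, Hnrnpdl, Rbmx, Srsf5, Clk1 and Clk4. They were taken from the count table by symbol, 7 of 56980 gene identifiers, and all 7 were among the 19152 genes with enough counts to be tested. The set was chosen by measured values of these same libraries as well as by function: Cirbp, Rbm3 and Hnrnpdl were already known to be higher with Trem2 knockout at 3 months, and whoever proposed the set could also see the results at 9 months. Values of the 3-month genotype comparison are therefore given as a description, without a test. Genotype at 9 months used other libraries, and age averaged over both genotypes is independent of the 3-month genotype difference, so these 2 comparisons were tested. As results at 9 months could be seen, neither comparison is wholly free of the choice of genes.

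Bulk RNA sequencing was done on the hippocampus of 12 male mice. Common to all of them was the knock-in allele App NL-G-F, a humanised App gene with familial Alzheimer mutations under its own promoter that leads to amyloid plaques. They formed 4 groups of 3: App NL-G-F mice at 3 months and at 9 months (App-KI), and App NL-G-F mice with Trem2 knockout at 3 months and at 9 months (Trem2-KO). Each library came from its own mouse identifier, and the sources used here do not say whether mice shared a litter, cage or day, so p-values measure the spread between these libraries. No group had a wild-type App gene, so ageing and growing amyloid load cannot be told apart. The sources used here give neither how the Trem2 allele was made, nor the hour of tissue collection, nor the body temperature of the mice.

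Cirbp and Rbm3 encode small glycine-rich RNA-binding proteins that accumulate when mammalian cells are cooled by a few degrees and decline when they are warmed. In the brain, Rbm3 is known for preserving synapses in cooled mice, and Cirbp for following the daily rhythm of body temperature and acting on the messenger RNAs of clock genes. Clk1 and Clk4 encode kinases that phosphorylate SR proteins, the splicing activators to which Srsf5 belongs, and the activity of these kinases is known to fall as temperature rises within the body's range. Hnrnpdl and Rbmx encode members of the hnRNP family, which bind nascent transcripts and shape splicing. Several of these genes are also known to be regulated through poison exons or retained introns, which counts per gene do not separate from productive transcripts.

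Promoter sequences, from 250 bases before to 50 after the annotated start, were available from RefSeq on GRCm38.p6 for 5 of the 7 genes, with a pair of start sites for Cirbp. The published mild cold response element of Cirbp, TCCCCGCC, was searched on both strands together with the heat shock element core GAANNTTC, the cAMP response element TGACGTCA, the E-box CACGTG and the CCAAT box; matches that overlap another motif were kept. Below are the promoter of Cirbp with the largest number of matches (chr10:80167589-80167888, plus strand), that of Hnrnpdl (chr5:100039173-100039472, minus strand) and that of Clk4 (chr11:51262864-51263163, plus strand). They are shown because Cirbp and Hnrnpdl were the genes with a promoter in the table whose libraries separated by genotype at both ages, and Clk4 because, of Srsf5 and Clk4, the genes whose libraries overlapped at both ages, its window was the one with a match. All read 5′ to 3′ on the gene's strand, and capitals mark the matches.
Cirbp: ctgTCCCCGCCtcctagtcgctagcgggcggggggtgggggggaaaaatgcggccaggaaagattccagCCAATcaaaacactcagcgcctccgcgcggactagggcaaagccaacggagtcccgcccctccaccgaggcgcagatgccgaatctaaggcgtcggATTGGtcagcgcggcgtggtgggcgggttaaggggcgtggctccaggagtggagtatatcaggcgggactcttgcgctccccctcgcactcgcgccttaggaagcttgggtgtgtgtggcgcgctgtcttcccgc
Hnrnpdl: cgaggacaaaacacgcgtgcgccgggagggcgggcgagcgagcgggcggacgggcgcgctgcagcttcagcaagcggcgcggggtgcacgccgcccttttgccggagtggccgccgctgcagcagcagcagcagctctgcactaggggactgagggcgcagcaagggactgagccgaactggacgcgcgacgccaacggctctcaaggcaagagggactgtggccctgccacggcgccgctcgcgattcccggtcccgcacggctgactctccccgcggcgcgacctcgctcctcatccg
Clk4: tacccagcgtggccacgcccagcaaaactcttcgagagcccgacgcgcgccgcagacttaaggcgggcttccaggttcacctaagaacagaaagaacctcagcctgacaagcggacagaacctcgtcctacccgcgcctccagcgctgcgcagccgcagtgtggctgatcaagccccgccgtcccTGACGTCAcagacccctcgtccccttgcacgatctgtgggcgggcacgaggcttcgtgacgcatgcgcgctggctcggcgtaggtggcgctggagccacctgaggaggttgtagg
The capitals in the Cirbp sequence mark the mild cold response element at bases 4 to 11, which begins at position -247 relative to the start, a CCAAT box at bases 70 to 74 and another on the opposite strand at bases 166 to 170. In Clk4 they mark the cAMP response element at bases 186 to 193. None of the 5 motifs was found in the Hnrnpdl window, in that of Srsf5 or in the second Cirbp window, and Rbmx held a CCAAT box at bases 180 to 184. Over 32851 promoters of the same length, 5.38% held the mild cold response element, 7.86% the heat shock element core, 1.79% the cAMP response element, 7.15% the E-box and 37.4% the CCAAT box. These matches describe letters in a window and say nothing of which factor binds there.

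Total counts per library ran from 14627892 to 24594655, so a gene with a count of 0 could still hold up to 3 counts, worth 0.122 to 0.206 CPM (counts scaled by library size), counting error alone considered. The targeted gene, Trem2, measured 9.19 ± 1.15 CPM (SD, n = 3 in every group) in App-KI and 1.98 ± 0.165 in Trem2-KO at 3 months, and 52.7 ± 2.90 against 3.74 ± 0.110 at 9 months, so it was lower in the libraries labelled as knockout at each age. Markers of the tissue were present in every group: Snap25 of neurons at 3229 to 3407 CPM, Prox1 of dentate granule cells at 73.9 to 82.9, Fibcd1 of CA1 neurons at 157 to 178 and Grik4 of CA3 neurons at 51.9 to 53.7, as group means. These levels show presence only, and do not show that the groups held the same mix of subfields. Within groups, no library stood as a copy of another. Pairs from different groups were not compared in this way. In bulk tissue, fewer cells of a type and less RNA per cell cannot be told apart for any of the values that follow.

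Srsf5 was the most abundant of the genes per kilobase of exon, and Rbm3 the least. On the scale of CPM per kilobase, over all 12 libraries, Srsf5 had a mean of 142 ± 7.02 (SD) and its libraries ran from 132 to 154, with no overlap with any other gene of the set. Hnrnpdl followed at 33.4 ± 4.41 and Clk1 at 26.6 ± 2.54, with overlapping ranges of 26.4 to 41.1 and 20.6 to 30.1. Over all libraries Cirbp (21.9 ± 6.29), Clk4 (21.4 ± 1.65) and Rbmx (21.4 ± 1.57) had nearly the same mean, and Rbm3 stood at 16.0 ± 2.99. Within groups the place of Cirbp among them turned with genotype: in App-KI it lay below both without overlap, at 17.0 to 17.4 against 19.7 to 21.1 for Clk4 and 19.3 to 20.9 for Rbmx at 3 months. In Trem2-KO it lay above both without overlap, at 27.8 to 31.3 against 18.5 to 21.6 and 22.9 to 23.3 at that age, and at 9 months the same order held in each genotype. Cirbp had the widest relative range, 12.7 to 31.3 CPM per kilobase. Raw counts per library ran from 505 for Cirbp to 13011 for Srsf5. Exon lengths were the union of annotated exons, and a transcript that uses fewer of them would raise the value per kilobase.

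Among the cold-induced genes, Cirbp separated the genotypes without overlap, across both ages. At 3 months its 3 App-KI libraries held 44.3, 45.4 and 45.0 CPM and the Trem2-KO libraries 72.3, 75.1 and 81.6. At 9 months the App-KI libraries held 42.4, 42.4 and 33.1 CPM and the Trem2-KO libraries 64.1, 66.0 and 71.6. The lowest Trem2-KO library at either age thus stood above the highest App-KI library of both ages, and the lowest value of all was that of App-KI 9-month replicate 3.

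Rbm3 showed the same separation on a narrower range. Its App-KI libraries at 3 months held 63.4, 62.9 and 61.4 CPM, and its Trem2-KO libraries 82.3, 90.2 and 95.7. At 9 months the values were 64.7, 67.1 and 54.2 CPM in App-KI and 86.0, 85.8 and 87.6 in Trem2-KO. Every Trem2-KO library again stood above every App-KI library, and the lowest was once more App-KI 9-month replicate 3.

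**Figure D1:**
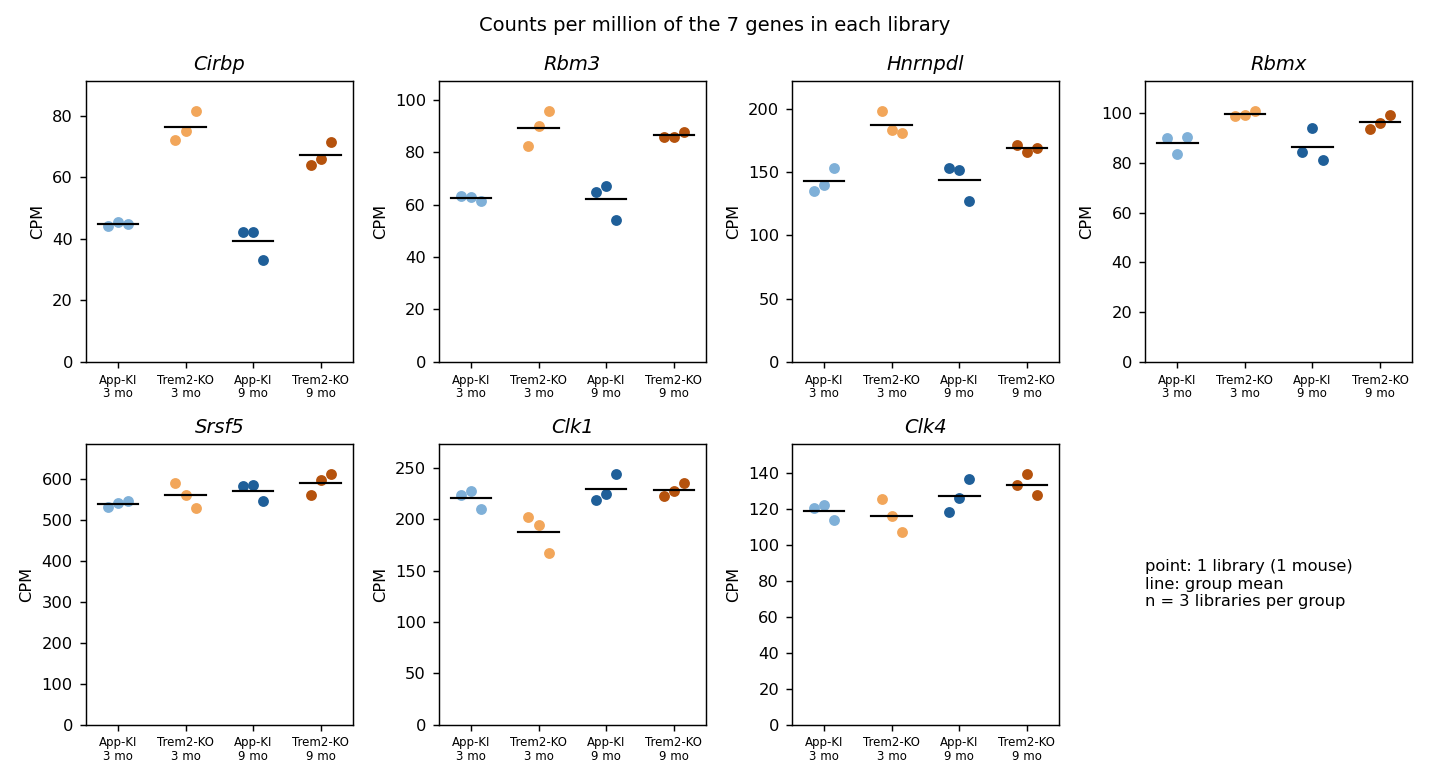
CPM (vertical axes, from 0) of the 7 genes in each of the 12 libraries; points are libraries of 1 mouse each in replicate order, horizontal lines are group means of 3. For Cirbp and Rbm3 the orange Trem2-KO points lie above all blue App-KI points at both ages, with Cirbp at 64.1 to 81.6 against 33.1 to 45.4 CPM; for Srsf5 and Clk4 the genotypes overlap at each age.

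Of the hnRNP genes, Hnrnpdl separated at each age as well, with a smaller gap. Its libraries held 135, 139.6 and 154 CPM in App-KI and 198, 183 and 181 in Trem2-KO at 3 months. At 9 months they held 153, 152 and 127 in App-KI and 171, 166 and 169 in Trem2-KO. The nearest libraries of the 2 genotypes at 9 months differed by less than the range within App-KI, whose replicate 3 was again the lowest. Rbmx, on the X chromosome like Rbm3, held 90.0, 83.6 and 90.5 CPM in App-KI and 98.9, 99.2 and 101 in Trem2-KO at 3 months. At 9 months its values were 84.1, 93.7 and 80.9 against 93.5, 95.9 and 99.2 CPM, so the lowest Trem2-KO library fell just inside the App-KI range.

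Srsf5, the SR protein, did not separate by genotype. At 3 months its libraries held 530.4, 541 and 547 CPM in App-KI and 591, 562 and 528 in Trem2-KO, the latter spanning the whole App-KI range. At 9 months they held 582, 586 and 546 against 559.7, 598 and 613 CPM.

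The kinase Clk1 was lower in the 3-month Trem2-KO libraries than in all others. Those libraries held 202, 195 and 167 CPM, against 223, 228 and 210.5 in App-KI of the same age. At 9 months Clk1 held 219, 225 and 244 CPM in App-KI and 223, 228 and 236 in Trem2-KO, so that the genotypes overlapped. Clk4, its close relative, held 121, 122 and 114 CPM in App-KI and 125, 116 and 107 in Trem2-KO at 3 months, and 118, 126 and 137 against 134, 139 and 127 at 9 months. In neither kinase did the 9-month genotypes separate, and the 3-month Trem2-KO replicate 3 was the lowest library of both.

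At 3 months, the comparison known when the set was chosen, the differences of Trem2-KO from App-KI on the log2 scale stood in a graded order (± is a standard error of the fit from here on). Cirbp stood at 0.77 ± 0.08 (1.70-fold), Rbm3 at 0.52 ± 0.07 (1.43-fold), Hnrnpdl at 0.39 ± 0.07 (1.31-fold) and Rbmx at 0.18 ± 0.06 (1.13-fold). Srsf5 and Clk4 stood near 0, at 0.05 ± 0.05 and -0.04 ± 0.06. Clk1 was the gene on the other side, at -0.23 ± 0.06. Of all genes tested, edgeR called 0.167% higher and 0.423% lower in this comparison, and in 8.65% all 3 Trem2-KO libraries stood above all 3 App-KI libraries, as they did for 4 of the 7 genes here; since this comparison helped choose them, nothing is read from that count.

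At 9 months Cirbp and Rbm3 were higher in Trem2-KO, and the other 5 genes did not pass the test. Cirbp was higher by 0.77 ± 0.08 (1.71-fold, 95% interval 0.60 to 0.94), with an adjusted p of 4.21e-06 (edgeR, quasi-likelihood F-test, Benjamini-Hochberg over all 19152 genes). Rbm3 was higher by 0.48 ± 0.07 (1.39-fold, interval 0.33 to 0.62, adjusted p = 0.000333). Both were higher in 3 of 3 libraries. Hnrnpdl stood at 0.23 ± 0.07 (interval 0.09 to 0.36), where the unadjusted p of 0.00258 became an adjusted p of 0.0849, and it was called when no filter on low counts was applied (adjusted p = 0.00282). Rbmx stood at 0.16 ± 0.06 (interval 0.04 to 0.28, adjusted p = 0.203).

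The splicing kinases and Srsf5 showed no difference between genotypes at 9 months that this design could detect. Clk1 stood at -0.0034 ± 0.06 with an interval of -0.13 to 0.13, Clk4 at 0.07 ± 0.06 (-0.06 to 0.20) and Srsf5 at 0.05 ± 0.05 (-0.06 to 0.16), with adjusted p-values of 0.991, 0.666 and 0.752. In all, edgeR called 2 of the 7 genes higher and 0 lower, with 0 lower also before adjustment (p under 0.05) and 0 with DESeq2, against 0.684% and 1.39% of all genes tested. The median of the 7 log2 values was 0.16, against 0.0066 over all genes. All 3 Trem2-KO libraries stood above all 3 App-KI libraries for Cirbp, Rbm3 and Hnrnpdl, which held for 8.28% of all genes tested. The 9-month results could be seen when the set was proposed, so these counts are not free of that choice.

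**Figure D2:**
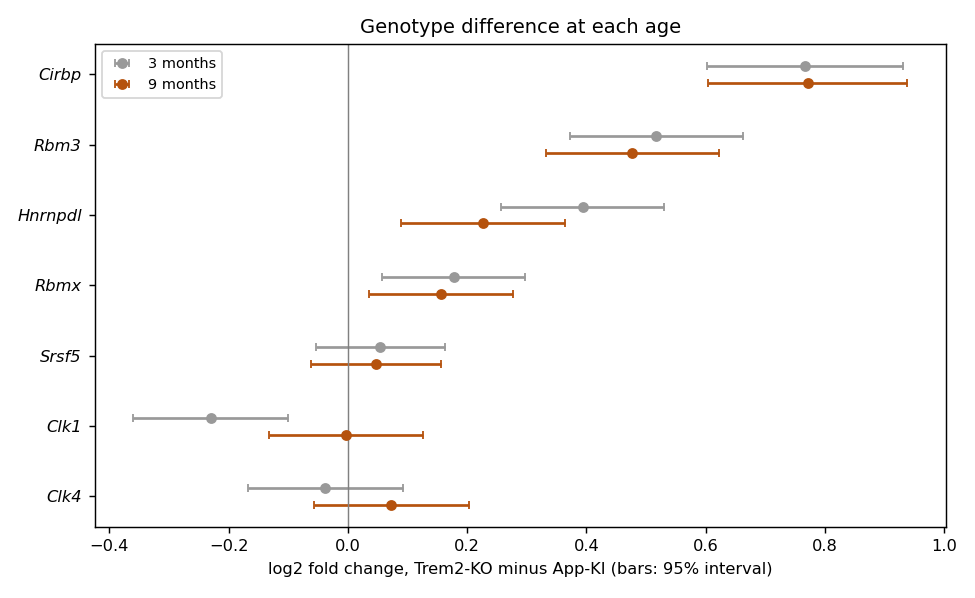
Log2 fold change of Trem2-KO against App-KI (horizontal axis) for each gene at 3 months (grey, description) and at 9 months (orange, tested); points are fitted values, bars are 95% intervals. Cirbp and Rbm3 keep nearly the same place at both ages, 0.77 and 0.77, and 0.52 and 0.48, whereas Clk1 stands at -0.23 at 3 months and at -0.0034 at 9 months.

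The genotype difference of Cirbp was almost the same at both ages: the 9-month value minus the 3-month value was 0.0040 ± 0.11. For Rbm3 it was -0.04 ± 0.10, for Hnrnpdl -0.17 ± 0.09, for Rbmx -0.02 ± 0.08, for Srsf5 -0.0073 ± 0.07, for Clk4 0.11 ± 0.09 and for Clk1 0.23 ± 0.09. These contain the 3-month libraries that helped choose the genes and are given without a test. Cirbp also stood higher relative to Rbm3 within each Trem2-KO library: the ratio of their CPM was 0.699 to 0.734 in App-KI and 0.833 to 0.878 in Trem2-KO at 3 months, and 0.611 to 0.656 against 0.745 to 0.818 at 9 months.

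Markers of other cell types moved with genotype at 9 months. The 12 meningeal and perivascular fibroblast markers summed to 354 to 536 CPM with the knockout and to 209 to 262 without it, with 2 of 12 called higher and all 12 positive, and the 12 microglial markers summed to 922 to 993 against 1572 to 1683 CPM, with 10 of 12 called lower. The 10 endothelial markers summed to 461 to 473 CPM with and 354 to 394 without the knockout, with 3 of 10 called higher, and the 10 astrocyte markers to 5526 to 5935 against 6255 to 6678 CPM, with 2 of 10 called lower. Choroid plexus markers varied within groups at both ages, from 346 to 3737 CPM in App-KI and from 371 to 7921 in Trem2-KO at 9 months, with 0 of 14 called; no marker of these 5 lists was at 0 in any library. Of all genes tested, 0.684% were called higher and 1.39% lower at 9 months. Among 9 hippocampal subfield markers, 0 was called higher and 1 lower at that age, with 4 values positive and 5 negative. That gene was Wfs1, at -0.33 ± 0.08 (edgeR adjusted p = 0.0406). At 3 months the fibroblast markers summed to 205 to 290 CPM with the knockout and to 216 to 294 without it, and the microglial ones to 571 to 596 and 604 to 630. The mean log2 CPM of the fibroblast markers, 4.49 to 4.92 with and 3.40 to 3.99 without the knockout, separated the genotypes at 9 months. With this score as a covariate Cirbp stood at 0.67 ± 0.16 (adjusted p = 0.185) and Rbm3 at 0.39 ± 0.14 (adjusted p = 0.562) at 9 months, and 0 of the 7 genes was called by edgeR; the median standard error over all genes was then 0.241 in place of 0.123. With the choroid plexus score as a covariate Cirbp and Rbm3 were both called (adjusted p = 9.19e-07 and 0.000136). The part of the microglial, endothelial, astrocyte and hippocampal subfield markers in these differences was not tested.

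Between 3 and 9 months, averaged over the genotypes, Cirbp fell and Clk1 and Clk4 rose. Cirbp fell by 0.19 ± 0.06 on the log2 scale (interval -0.30 to -0.07, edgeR adjusted p = 0.0254, a change of -12.1% on the linear scale), and the fall was alike in App-KI (-0.19 ± 0.08) and in Trem2-KO (-0.18 ± 0.08). Rbm3, its companion in the cold response, stood at -0.03 ± 0.05 (interval -0.13 to 0.07, adjusted p = 0.742). Within each genotype every 9-month Cirbp library lay below every 3-month one, while those of Rbm3 overlapped. The share of all genes whose libraries separate by age was not counted. Nothing is therefore read from such separations in this paragraph and the next.

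Clk1 rose by 0.17 ± 0.04 (interval 0.08 to 0.26, adjusted p = 0.0104) and Clk4 by 0.15 ± 0.04 (0.06 to 0.24, adjusted p = 0.0236). Their values within genotype were 0.28 ± 0.06 and 0.20 ± 0.06 in Trem2-KO, where the ages did not overlap, and 0.06 ± 0.06 and 0.09 ± 0.06 in App-KI, where they did. Srsf5 stood at 0.08 ± 0.04 (unadjusted p = 0.0455, adjusted p = 0.164), Hnrnpdl at -0.07 ± 0.05 (adjusted p = 0.367) and Rbmx at -0.04 ± 0.04 (adjusted p = 0.576), all by the same edgeR test. Within genotype Hnrnpdl stood at -0.15 ± 0.06 in Trem2-KO, without overlap of the ages, and at 0.02 ± 0.07 in App-KI. The interval of the difference between these values ran from -0.36 to 0.03, and that difference was not tested.

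Over the 7 genes, 2 were called higher and 1 lower with age, against 9.26% higher and 7.7% lower of all genes tested, so that age calls were common throughout the table. The median of the 7 was -0.03, against 0.0016 over all genes. Leaving out single libraries moved these counts more than those of genotype: the Clk1 call held without each of the 12 libraries in turn, whereas Cirbp was not called without App-KI 3-month replicate 2 or 3, Trem2-KO 3-month replicate 3 or Trem2-KO 9-month replicate 1 or 2, with adjusted p-values of 0.0523, 0.0552, 0.0836, 0.0542 and 0.0546. Clk4 was not called without App-KI 3-month replicate 3, App-KI 9-month replicate 2 or 3, Trem2-KO 3-month replicate 3 or Trem2-KO 9-month replicate 2 (adjusted p of 0.076, 0.0521, 0.0958, 0.0869 and 0.0679). With the fibroblast score as a covariate edgeR called 0 of the 7 with age, at -0.24 ± 0.09 for Cirbp (adjusted p = 0.123), 0.13 ± 0.07 for Clk1 (0.266) and 0.14 ± 0.07 for Clk4 (0.236). Cell type markers moved with age as well. Called higher were 11 of 12 microglial, 4 of 12 fibroblast, 4 of 10 astrocyte and 5 of 10 endothelial markers, and all 12 fibroblast values were positive. Called lower were 3 of 10 oligodendrocyte, 3 of 10 neuronal, 3 of 9 hippocampal subfield and 1 of 10 endothelial markers. The microglial sum went from 571 to 630 CPM over the 3-month libraries to 922 to 1683 over the 9-month ones. Beyond the fits with a marker score as covariate, the part of these markers in the age values was not tested.

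**Figure D3:**
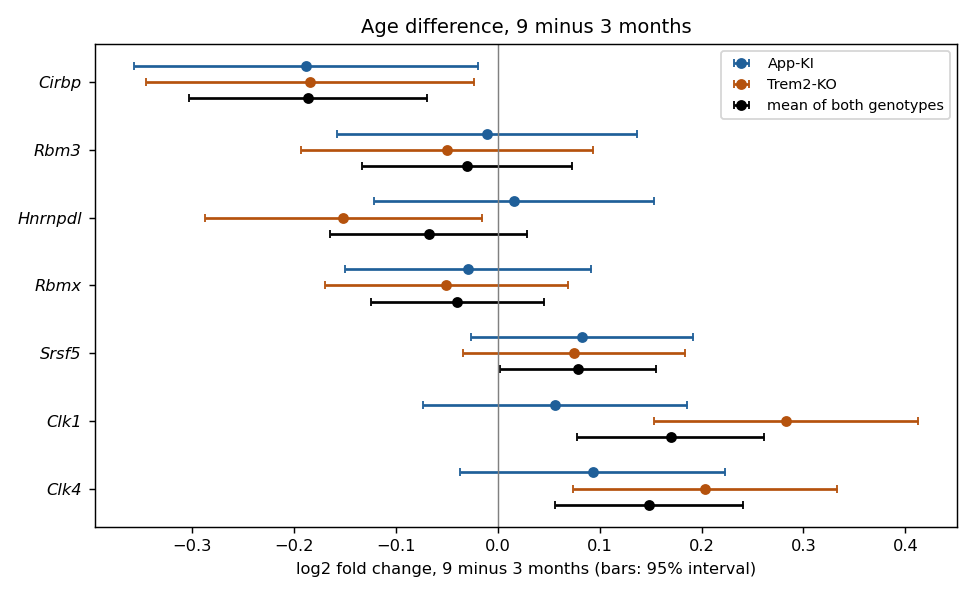
Log2 fold change of 9 against 3 months (horizontal axis) for each gene in App-KI (blue), in Trem2-KO (orange) and averaged over both genotypes (black, tested); points are fitted values, bars are 95% intervals. Cirbp lies below 0 in all 3 estimates, at -0.19, -0.18 and -0.19, and Clk1 in Trem2-KO lies highest, at 0.28.

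The genes were also compared over the differences that remained within groups, as deviations of log2 CPM from the group mean in 12 libraries. Cirbp and Rbm3 varied together (Pearson r = 0.911, exact permutation p = 0.0139; Spearman rho = 0.846, exact permutation p = 0.0162), with r = 0.820 without the 2 libraries farthest from the median of Cirbp. Clk1 and Clk4 did so as well (r = 0.794, exact permutation p = 0.0278; rho = 0.762, p = 0.0347 by the same exact test; r = 0.637 without the 2 farthest), and Cirbp and Clk4 varied in opposite directions (r = -0.782, exact permutation p = 0.0193; rho = -0.818, p = 0.0116 by the same exact test; r = -0.681 without them). Hnrnpdl and Srsf5 also varied together (r = 0.614, exact permutation p = 0.0309; rho = 0.615, p = 0.0247 by the same exact test; r = 0.532 without the 2 farthest). The family held 21 pairs, tested two-sided over 1296 arrangements within groups. All the pairs named here had a Benjamini-Hochberg adjusted p of 0.162 for r, and 0 of the 21 pairs was below 0.05 after adjustment. Of the 21 values of r, 13 were positive.

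Genes whose levels followed those of Cirbp and Rbm3 most closely were looked for by Pearson's r with the mean of the standardised log2 CPM of both genes, over 12 libraries that fall into 4 groups, among 10592 other genes. The highest were Armcx5 (r = 0.969), Slc35b2 (0.958), a Golgi transporter of the sulfate donor, Nav1 (0.951), Maoa (0.949), the monoamine oxidase A, Mir9-3hg (0.948), a host transcript of the microRNA miR-9, and Rae1 (0.939), an mRNA export factor. The lowest were Mkks (-0.977), a chaperonin-like protein, Dio2 (-0.965), the deiodinase that activates thyroid hormone, Papola (-0.963), the nuclear poly(A) polymerase, Hspa8 (-0.962), the constitutive HSP70, and the endoplasmic reticulum chaperones Pdia6 (-0.957) and Hsp90b1 (-0.957). Since all such genes share the distance between genotypes, r within groups is given too: it was 0.919 for Mir9-3hg, 0.827 for Slc35b2, 0.570 for Armcx5, 0.443 for Nav1, -0.902 for Papola, -0.764 for Hspa8 and -0.740 for Mkks. Among the genes of the set, Rbmx had r = 0.900 and Hnrnpdl 0.896, Srsf5 0.297, Clk4 -0.167 and Clk1 -0.587. Within groups r was 0.616 for Rbmx, 0.472 for Hnrnpdl, 0.159 for Srsf5, -0.774 for Clk4 and -0.657 for Clk1. These are descriptions of 12 libraries, without a test.

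By level, Armcx5 held 29.4 ± 1.03 CPM (SD) in App-KI and 41.6 ± 2.50 in Trem2-KO at 3 months, and 28.4 ± 0.964 against 38.1 ± 2.13 at 9 months. Dio2 held 47.6 ± 2.34 against 34.3 ± 1.67 CPM at 3 months and 47.7 ± 2.92 against 37.8 ± 1.51 at 9 months. Papola held 189 ± 2.58 against 159 ± 5.68 and 191 ± 12.8 against 169.6 ± 4.18 CPM. The first of these 3 genes was higher and the others lower in Trem2-KO at each age, like or opposite to Cirbp by the way they were picked.

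**Figure D4:**
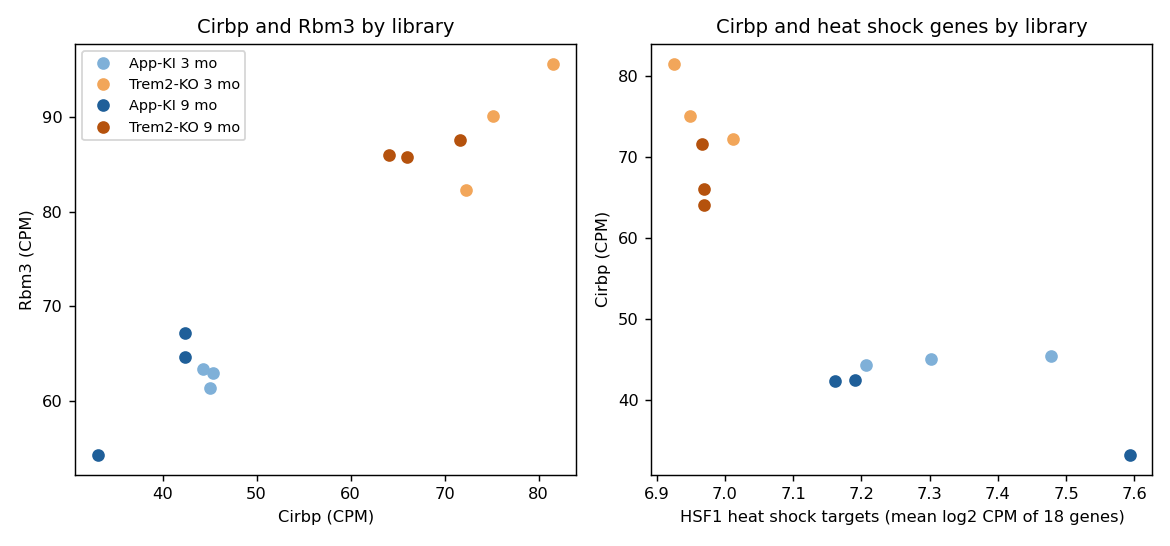
Left, CPM of Rbm3 (vertical axis) against CPM of Cirbp (horizontal axis) by library; right, CPM of Cirbp (vertical axis) against the mean log2 CPM of 18 heat shock genes (horizontal axis) by library; colours mark the 4 groups, and the axes do not start at 0. Trem2-KO libraries lie at the upper right on the left side and at the upper left on the right side, and App-KI 9-month replicate 3, at 33.1 CPM of Cirbp, has the highest heat shock mean, 7.59.

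By edgeR, the other genes of the same families that were called for genotype were lower in Trem2-KO. In 6 lists of related genes (SR proteins, SR protein kinases, hnRNP proteins, Rbmx relatives, cold shock domain proteins and the pathway downstream of Rbm3), 56 of 58 genes were tested. By edgeR, at 3 months 0 rose and 4 fell, at 9 months 0 rose and 2 fell, and with age 4 rose and 2 fell. DESeq2 called 7 at 3 months, and the direction of its calls was not counted. The 0 that rose for genotype stood beside small shares called higher over all genes, 0.167% at 3 months and 0.684% at 9 months. The shares that fell for genotype, 7.14% at 3 months and 3.57% at 9 months, stood beside 0.423% and 1.39% of all genes tested, and the shares for age, 7.14% higher and 3.57% lower, beside 9.26% and 7.7%. The lists were chosen with earlier results of these data known. They were not matched to all genes for abundance, so no excess is read from these shares.

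Of the 12 other SR proteins, which bind exonic enhancers, 0 rose and 1 fell at 3 months and 0 was called at 9 months, when 3 had an unadjusted p under 0.05 by edgeR. The gene that fell was Srsf10, a splicing repressor in its dephosphorylated form, at -0.32 ± 0.06 at 3 months (edgeR adjusted p = 0.00993) and -0.19 ± 0.06 at 9 months (adjusted p = 0.106). Its level was 151 ± 4.41 CPM (SD) in App-KI and 120.5 ± 4.84 in Trem2-KO at 3 months. Tra2a, an activator that binds purine-rich enhancers, stood at -0.22 ± 0.06 at 9 months (adjusted p = 0.067). The median over the list was -0.07 at 3 months and -0.06 at 9 months.

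None of the 7 other SR protein kinases was called for genotype by edgeR at either age, with 1 gene, Prpf4b, at an unadjusted p under 0.05 each time. Prpf4b, a kinase of the spliceosome, stood at -0.12 ± 0.05 at 3 months and -0.17 ± 0.05 at 9 months (adjusted p = 0.36 and 0.0918), and it rose with age by 0.13 ± 0.04 (adjusted p = 0.0139). Clk2, of the same kinase family as Clk1 and Clk4, stood at 0.10 ± 0.05 with age (adjusted p = 0.163). The median of the list was -0.08 for genotype at each age and 0.07 for age.

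Among 24 other hnRNP genes, 3 fell at 3 months and 2 at 9 months, and 0 rose. The values of Hnrnpdl and Rbmx lay on the other side of 0 from these few called genes, but not from most of the list. In it 15 values were positive and 9 negative at 3 months, and 13 and 11 at 9 months. At 3 months Hnrnpr stood at 0.23 ± 0.05 and Hnrnpd at 0.19 ± 0.05, neither called (edgeR adjusted p = 0.0563 and 0.0938). Hnrnpm, a splicing regulator, stood at -0.28 ± 0.05 and -0.29 ± 0.05 at the respective ages (edgeR adjusted p = 0.0058 and 0.00103), and Hnrnpc, which binds uridine tracts, at -0.22 ± 0.05 and -0.27 ± 0.05 (adjusted p = 0.0281 and 0.00168). Hnrnpc held 345 ± 10.9 CPM (SD) in App-KI and 286 ± 9.66 in Trem2-KO at 9 months. Hnrnph3 fell at 3 months (-0.25 ± 0.05, adjusted p = 0.0357). Hnrnpr was nearest to the threshold on the higher side, at 0.20 ± 0.05 at 9 months (adjusted p = 0.0579). The medians, 0.02 and 0.04, lay near 0, and with age Ptbp1, a splicing repressor of neuronal exons, rose by 0.27 ± 0.08 (adjusted p = 0.023) and Hnrnpf by 0.12 ± 0.04 (adjusted p = 0.048).

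Rbmxl1, the retrogene copy of Rbmx and the 1 of 2 Rbmx relatives that could be tested, stood at 0.13 ± 0.06 at 3 months and 0.08 ± 0.06 at 9 months and was not called (adjusted p = 0.486 and 0.625). Of the cold shock domain proteins, named for a fold shared with bacterial cold shock proteins rather than for induction by cold, 0 of 7 was called for genotype by edgeR at either age, with 0 at an unadjusted p under 0.05. Csdc2 fell with age by 0.20 ± 0.04 (adjusted p = 0.00312). In the pathway tied to Rbm3, Rtn3, its effector at synapses, the receptor Ntrk2, its ligand Bdnf, Plcg1 and Creb1 gave 0 calls of 5 for genotype, where 1 at 3 months and 0 at 9 months had an unadjusted p under 0.05. With age Ntrk2 rose by 0.19 ± 0.04 (adjusted p = 0.0045) and Bdnf fell by 0.15 ± 0.05 (adjusted p = 0.0298).

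**Figure D5:**
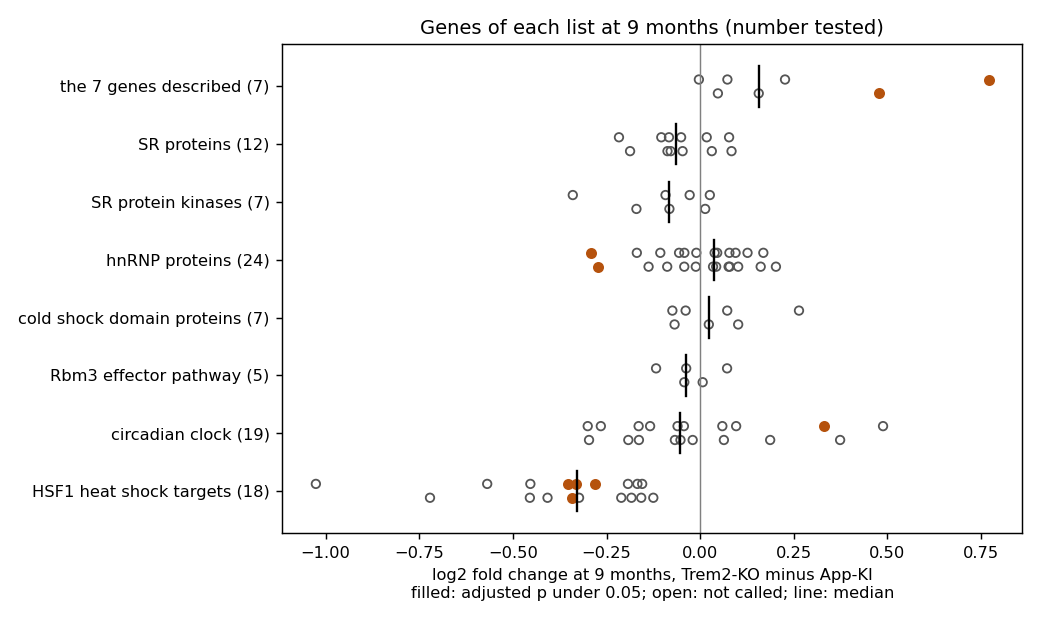
Log2 fold change of Trem2-KO against App-KI at 9 months (horizontal axis) for every tested gene of the set and of 7 related lists (rows, with the number tested); filled points were called, open ones were not, and vertical lines are medians. Cirbp at 0.77 and Rbm3 at 0.48 are the filled points of the top row, and the heat shock row lies wholly below 0 with a median of -0.33.

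Heat shock genes, the counterpart of the cold-induced genes in the response to temperature, stood lower in Trem2-KO. Of 18 targets of the heat shock factor HSF1, 4 fell and 0 rose by edgeR at each age (12 and 14 had an unadjusted p under 0.05). Of all genes tested, 0.423% were called lower and 0.167% higher at 3 months, and 1.39% and 0.684% at 9 months. This list too was chosen with earlier results known and was not matched to all genes for abundance. Hspa8 was at -0.34 ± 0.06 at 9 months (edgeR adjusted p = 0.00204). All 18 targets had negative values at both ages, with medians of -0.32 and -0.33. Their mean log2 CPM per library was 7.21, 7.48 and 7.30 in App-KI and 7.01, 6.95 and 6.93 in Trem2-KO at 3 months, and 7.19, 7.16 and 7.59 against 6.97, 6.97 and 6.97 at 9 months. App-KI 9-month replicate 3, the lowest library for Cirbp, Rbm3 and Hnrnpdl, was thus the highest of all for these genes. Without that library the 9-month difference was 0.66 for Cirbp and 0.39 for Rbm3 (edgeR adjusted p = 2.07e-05 and 0.00277), and 0.14 for Hnrnpdl. Of 19 circadian clock genes, 0 was called at 3 months by edgeR, when 9 had an unadjusted p under 0.05, and at 9 months 1 rose: Nr1d1, a repressor of the clock loop, by 0.33 ± 0.07 (adjusted p = 0.013). Dbp, a clock output gene, stood at 0.49 ± 0.13 (adjusted p = 0.0847) and Hlf at -0.19 ± 0.06 (edgeR adjusted p = 0.102). At 9 months 8 of the 19 clock genes had an unadjusted p under 0.05 by edgeR. Of the 19 values, 4 were positive and 15 negative at 3 months, and 7 and 12 at 9 months, with medians of -0.11 and -0.05.

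Of 8 noncoding RNAs listed as nuclear, 0 was called by edgeR at 3 months, when 2 had an unadjusted p under 0.05, and Miat fell at 9 months (-0.36 ± 0.05, adjusted p = 0.000333). At 9 months 4 of the 8 had an unadjusted p under 0.05 by edgeR. With age 1 was called higher and 2 lower, beside 9.26% and 7.7% of all genes tested. Neat1, the scaffold of paraspeckles, rose with age by 1.14 ± 0.10 (edgeR adjusted p = 5.32e-05). Malat1, a speckle RNA, fell by 0.72 ± 0.10 (adjusted p = 0.00129) and Rian by 0.15 ± 0.04 (adjusted p = 0.0134).

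Sequence shared with other genes touched some of the counts. Of all 50-base words in annotated transcripts, 9.71% of those of Rbm3, 10.1% of those of Srsf5, 3.08% of those of Hnrnpdl and 0.672% of those of Rbmx also occurred in other genes, against 0% for Cirbp, 0.0711% for Clk1 and 0.177% for Clk4. The pseudogenes concerned held few counts: Rbm3-ps 2 to 19 per library, beside 827 to 2052 for Rbm3, and Gm12966 20 to 54, beside 8321 to 13011 for Srsf5. The antisense gene Rbm3os, which shares 94 exon bases with Rbm3, held 5 to 19. Whether strand was used in counting is not stated, so reads of such a pair could not be told apart.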

How the data were processed

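The authors deposited raw read counts per gene for 12 libraries, whole numbers without normalisation as the values show. Per the labels' protocols, total RNA was purified on columns, its quality read on a TapeStation, and SMART-Seq mRNA LP libraries were made. GRCm39, STAR 2.7.10a, featureCounts 2.0.3, DESeq2 1.36.0 and R 4.2.0 are listed in the submitters' processing notes, without their roles. Not given in the sources used here are the annotation release, the strand setting and the treatment of multi-mapping reads.

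Symbols and exon lengths came from GENCODE M21 on GRCm38, another build, which matched 52125 of 56980 identifiers; the others held 0.192 to 0.215% of the reads of a library. Totals of 14627892 to 24594655 counts set the precision. edgeR 4.0.16 (R 4.3.3) was run on the counts with TMM scaling (factors 0.993 to 1.01), filterByExpr (minimum count 10, total 15), 1 term per group over 12 libraries (8 residual degrees of freedom) and the robust quasi-likelihood test, with Benjamini-Hochberg adjustment over 19152 genes and a threshold of 0.05. Intervals are 95% intervals of the fit. log2 CPM used a prior count of 2. The procedure was also tested on simulated counts.

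The members and all gene lists were chosen with earlier results of these data known. Named genes are the 7 members, Trem2, up to 3 genes with the smallest p per related list and comparison, and the 6 most and 6 least alike to Cirbp and Rbm3 at a mean log2 CPM from 3 upwards. Alternatives were another scaling (DESeq2 size factors, library size alone), DESeq2 1.42.0, no filter, only the libraries compared, marker scores as covariates and leaving out each library.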

Additional observations from a re-analysis of the deposited data

How the results depend on the processing

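Of 19 alternatives for genotype at 9 months, 18 left the count of called genes within 1.5 times of 2 (2 without each library in turn, 3 with no filter on low counts), and Cirbp and Rbm3 were both called in those 18. With the fibroblast marker score as a covariate the count was 0. For age averaged over genotypes, the count of 3 became 0 with that covariate and ran from 1 to 3 when single libraries were left out; Clk1 was called in 17 of 18 alternatives, Cirbp and Clk4 in 12 of 18 each. The covariate raised the standard errors, and the cause of the other changes was not tested. Among the related lists at 3 months, DESeq2 called 7 genes in place of 4. No called value changed direction. Values near 0 that were not called changed sign: Srsf5 at 9 months reached -0.05 with the fibroblast score, Clk1 at 9 months up to 0.04 in several alternatives, Rbm3 with age 0.0047 without App-KI 9-month replicate 3, and Clk4 at 3 months 0.02 without Trem2-KO 3-month replicate 3.

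Over all genes, calls at 9 months were 131 higher and 267 lower, but 437 and 394 with no filter, 0 and 29 with the fibroblast score, 211 and 324 with DESeq2, 79 and 210 from the 9-month libraries alone, and between 32 and 143 (without App-KI replicate 3) and 271 and 285 (without Trem2-KO replicate 3) when 9-month libraries were left out. For age they were 1774 higher and 1475 lower, and 703 and 468 with the fibroblast score. At 3 months they were 32 and 81, 93 and 166 with DESeq2, and fewer without any single 3-month library: 7 to 19 higher and 16 to 56 lower, with 7 and 26 without App-KI replicate 2 and 10 and 16 without Trem2-KO replicate 3. No paired analysis was possible because the labels give mouse identifiers and no replicate numbers shared between groups. With 3 mice per group, a difference of 0.1 on the log2 scale lay within the 9-month genotype intervals of Clk1 (-0.13 to 0.13), Clk4 (-0.06 to 0.20) and Srsf5 (-0.06 to 0.16). So did no difference at all.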
